A study of Mus musculus with 12 samples.

Results

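Transcripts of 9 noncoding snoRNA host genes were examined for contacts with 3 Flag-tagged RNA-binding proteins: Snhg1, Snhg3, Snhg5, Snhg6, Snhg8, Snhg11, Snhg12, Gas5 and 1110038B12Rik. The regions described are binding clusters, and they were selected by position: a cluster's centre had to lie in the gene body of a host, on the strand of that host, and outside every annotated snoRNA gene. The host genes themselves were picked with earlier results of these data known, so the values below are descriptions without a test. Of 124941 clusters in the authors' deposited tables, the rule took 137. They comprise 48 clusters of Puf60 with exon 5, 50 of Puf60 without exon 5 and 39 of Rbm38. A further 26 clusters of these genes are centred in a snoRNA gene and are given separately.

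The data come from iCLIP, in which ultraviolet light links proteins to the RNA they touch, the protein is pulled down, and the attached RNA fragments are sequenced. N2A mouse neuroblastoma cells of a Flp-in line carried a doxycycline-inducible, Flag-tagged copy of Puf60 with its exon 5, of Puf60 lacking exon 5, or of Rbm38, so the tagged protein was made beside whatever the cells make themselves. Each protein had 3 CLIP libraries, precipitated with the M2 antibody against Flag, and 1 size-matched input, which makes 12 samples. All cells received 1 µg/ml of doxycycline and 150 mJ/cm2 of ultraviolet light. Doxycycline was given for 48 h before CLIP of Puf60 with exon 5, and for 24 h before its input and before all libraries of both other lines. Wherever the Puf60 isoforms are compared, isoform and length of induction cannot be told apart. The labels do not say whether replicates came from separate cultures, nor whether a line is 1 clone.

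Each deposited table holds the authors' own comparison of CLIP with input for every cluster, as a log2 fold with its p-value, before and after adjustment. A log2 fold of 1 was read as a doubling over input. There are no values per library in the tables, so neither depth nor replicate spread is known for a value, and no SD or interval can be given. A cluster is called enriched where the deposited adjusted p is under 0.05. It is called depleted where its log2 fold is below 0 and a Benjamini-Hochberg adjustment of 1 minus the deposited p gives a value under 0.05. A stretch without a cluster is not listed, which is not a value of 0. Of 12 neuronal and neuroblast markers, 6 had no cluster in any table (Nefl, Nefm, Gata3, Isl1, Th and Dbh), while Tubb3, Map2, Stmn2, Hand2 and Chga had clusters in all 3. The fibroblast marker Col1a1 and the leukocyte marker Ptprc had 1 cluster each, for Rbm38 alone.

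Small nucleolar RNAs guide the chemical modification of ribosomal and spliceosomal RNA: those of the box C/D class, named Snord, direct ribose methylation, and those of the box H/ACA class, named Snora, direct pseudouridylation. In mammals most are cut out of introns that are spliced from longer host transcripts. Some hosts encode ribosomal or nucleolar proteins, and others, such as Gas5 and the Snhg genes, yield a spliced RNA with little coding capacity that is often unstable because translation exposes it to nonsense-mediated decay. Many hosts start with a pyrimidine stretch like that of messenger RNAs for the translation machinery. Puf60 recognises pyrimidine-rich RNA ahead of 3′ splice sites and takes part in splicing. Rbm38 is induced by p53 and is known for binding U-rich and GU-rich messenger RNA.

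Within the hosts, the RNA between the snoRNA genes was often enriched in CLIP and the stretches over snoRNA genes were mostly depleted. Counted from the authors' deposited tables, 58 of the 137 clusters were enriched, 47 were depleted and 32 were neither. For Puf60 with exon 5, 20 of 48 clusters (41.7%) were enriched and 15 depleted, where 39.3% and 26.3% of all tested clusters of that table were. For Puf60 without exon 5, 22 of 50 (44%) were enriched and 18 depleted, beside 36.2% and 27.9% of all tested clusters. For Rbm38, 16 of 39 (41.0%) were enriched and 14 depleted, beside 51.2% and 11.2% of all tested clusters. The shares of enriched host clusters thus lay near the background of their tables for Puf60 and below it for Rbm38, and they mix both kinds of stretch.

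Split by the snoRNA annotation, which the choice of clusters used only for their centres, 94 of the 137 touched no snoRNA gene and 43 overlapped one at an edge or along part of their length. Of the 94 free clusters 51 were enriched, 12 depleted and 31 neither. By table, 51.5%, 52.9% and 59.3% of them were enriched for Puf60 with exon 5, Puf60 without exon 5 and Rbm38, beside 39.4%, 36.3% and 51.2% of the free clusters elsewhere in the tables. In the same order 9.1%, 20.6% and 7.4% of them were depleted, beside 25.7%, 27.3% and 10.6% of the free clusters elsewhere. Of the 43 that touched a snoRNA gene 7 were enriched, 35 depleted and 1 neither. The free clusters had median log2 folds of 1.03 for Puf60 with exon 5, 0.80 for Puf60 without exon 5 and 1.26 for Rbm38 in the authors' deposited tables, where all clusters had medians of 0.24, 0.11 and 1.04. The touching clusters had medians of -1.93, -1.92 and -2.84, and those centred in a snoRNA gene had medians of -2.56, -3.06 and -3.40. The lowest of all was the Rbm38 cluster at Snora73a in Snhg3, at -6.56.

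Low folds over snoRNA genes were not particular to these hosts. Elsewhere in the authors' deposited tables, 263 of 273 clusters of Puf60 with exon 5 that touched a snoRNA gene were depleted, as were 266 of 278 of Puf60 without exon 5 and 283 of 286 of Rbm38. These counts include clusters centred in a snoRNA gene, which the touching members of the hosts leave out, so the sets are unlike. The clusters elsewhere had medians of -2.69, -2.79 and -3.02. Of them 4, 6 and 2 were enriched (1.5%, 2.2% and 0.7%). Among the touching members of the hosts, 3 of 15, 4 of 16 and 0 of 12 were enriched in the same order.

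**Figure D1:**
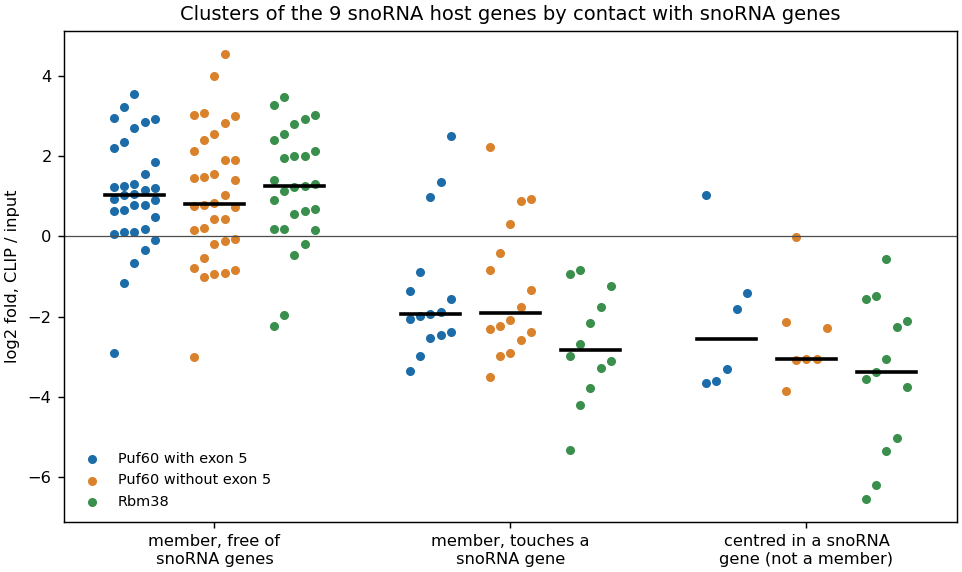
Log2 fold of CLIP over input for each cluster in the 9 host genes, by protein and by relation to snoRNA genes; points are clusters and bars are medians. Clusters free of snoRNA genes have medians of 1.03, 0.80 and 1.26, and those touching or centred in one have medians of -1.92 or lower.

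A 50-nt grid over the hosts sets the 3 proteins side by side. A long cluster fills several windows of the grid with 1 value, so counts of windows also follow cluster length. Windows outside the hosts were not counted, so these counts have no background. Members, which leave out the clusters centred in a snoRNA gene, covered 204 windows of 50 nt, and 55 of these were covered in all 3 of the authors' deposited tables. Of the 55, 29 lay in depleted clusters in every table: 14 in Snhg1, 7 in Snhg12, 4 in Gas5 and 4 in 1110038B12Rik. A set of 6 windows lay in enriched clusters in every table: 3 in 1110038B12Rik, 2 in Gas5 and 1 in Snhg6. In 28 of the 204 windows a cluster was enriched in at least 1 table and depleted in at least 1 other, 18 of them in Gas5 and 8 in Snhg1.

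The 5′ ends of 3 hosts carried a cluster in every table. The sequences below are the first 50 bases from annotated start sites (RefSeq, GRCm38.p6, transcribed strand). Those clusters overlap them at Snhg1, Snhg12 and 1110038B12Rik, and none did at Gas5 and Snhg8. For Gas5, Snhg8 and 1110038B12Rik a start that opens with pyrimidines is shown. The starts not shown, of Snhg3, Snhg5 and Snhg11 and a further one each of Gas5 and 1110038B12Rik, have no leading pyrimidine. Capitals mark runs of at least 5 pyrimidines (C or T).
Snhg1, chr19:8723487-8723536, plus strand: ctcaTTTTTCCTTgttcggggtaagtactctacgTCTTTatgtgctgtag
Snhg12, chr4:132308678-132308727, plus strand: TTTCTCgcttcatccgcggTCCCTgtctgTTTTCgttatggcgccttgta
1110038B12Rik, chr17:34952419-34952468, minus strand: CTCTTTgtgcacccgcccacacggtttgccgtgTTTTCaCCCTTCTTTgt
Gas5, chr1:161035166-161035215, plus strand: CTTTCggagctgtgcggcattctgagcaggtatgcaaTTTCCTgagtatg
Snhg8, chr3:123508287-123508336, minus strand: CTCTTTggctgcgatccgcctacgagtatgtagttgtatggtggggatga

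The cluster over the Snhg1 start had, in the authors' deposited tables, log2 folds of 2.94 for Puf60 with exon 5, 2.13 for Puf60 without exon 5 and 3.40 for Rbm38. That over the Snhg12 start had 1.17, 1.90 and 2.14 in the same order. That over the 1110038B12Rik start had 2.22, 1.55 and 2.81. The order of the proteins differed between the genes: Rbm38 was highest at all 3 starts, and the isoforms changed places. The Rbm38 cluster at Snhg1 is centred outside the annotated gene body and is no member by the rule, and the Rbm38 cluster at Snhg12 has a deposited adjusted p of 1 beside a p of 7.3e-22, so it is not called enriched.

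A pyrimidine stretch was present both with and without a cluster. A leading run of at least 5 pyrimidines stood at 4 of 10 start windows of the hosts (Snhg8, Snhg12, the later start of Gas5 and 1 start of 1110038B12Rik), beside 4.44% of 32851 start windows of all genes in the reference. The Snhg1 window holds a run of 9 pyrimidines after 4 leading bases, and 11.4% of all windows hold a run that long. TTTT, searched on the transcribed strand, was found in 5 of the 10 host windows and in 12.7% of all, and TGTG in 4 of the 10 and in 20.6% of all. The host windows include neighbouring starts of 1 gene that share most of their bases. Snhg6 has no entry among the promoter sequences. These matches describe letters in a window.

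Snhg1, which carries 8 snoRNA genes including the box C/D gene Snord22, lies on the plus strand of chromosome 19 from 8723487 to 8726326 (mm10, 2840 nt). In each table it alternated between stretches above and below input. In the authors' deposited table of Puf60 with exon 5, the cluster at the start (2.94) and that at 8724651 to 8724750 (2.36) were enriched. The remaining stretches of that table were long depleted clusters of -1.93, -1.89, -2.06 and -1.37, each overlapping 1 to 3 snoRNA genes, and a cluster at 8723801 to 8723850 of 0.93 with an adjusted p of 1. Puf60 without exon 5 had enriched members of 2.13 at the start, 1.49 at 8723801, 3.0 at 8726051 and 1.47 at 8726151 in the authors' deposited table, and depleted ones of -2.97, -2.58, -1.77 and -2.92. Both isoforms were thus above input at the start and below it over most snoRNA genes. The enriched members of Rbm38 lay, in the authors' deposited table, at 8724351 to 8724400 (2.94), at 8724651 to 8724750 (3.02) and at 8726051 to 8726100 (3.28). Its depleted members had log2 folds of -2.99, -1.23, -1.77, -2.17 and -2.69. Rbm38 also had a cluster of 4.01 at 8726251 to 8726450 over the 3′ end, centred just past the annotated end and so outside the rule.

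Among the matched pairs of Snhg1 the isoforms stood farthest apart at its last stretch. In the authors' deposited table of Puf60 with exon 5, 8725751 to 8726450 is 1 cluster of 700 nt that includes Snord22, at -1.37 on the log2 scale. Without exon 5 the same stretch is 3 clusters in the authors' deposited table: 8725751 to 8726000 over Snord22 at -2.14, 8726051 to 8726100 at 3.0, and 8726151 to 8726450 at 1.47. The matched pair, the long cluster against the last of these, differed by -2.84 (with exon 5 minus without). Averaged by length over the stretch, the 3 clusters came to 0.10, and the difference was -1.47. Snhg1 was named for its isoform difference when these hosts were picked, so these values describe that choice. A change in fold and the joining of unlike stretches into 1 cluster cannot be told apart in the tables. A stretch without a matched pair stood apart the other way: 8724651 to 8724750 was at 2.36 with exon 5, where the overlapping cluster without exon 5, 8724351 to 8724750, is centred in a snoRNA gene and was at -0.02 in the authors' deposited tables, a difference of 2.38. At the other matched pairs of Snhg1 the isoforms had the same sign, as in 0.93 against 1.49 at 8723801 to 8723850, and -1.89 against -2.58 at the snoRNA genes from 8724801 on.

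Gas5, a growth-arrest-associated transcript that carries 8 snoRNA genes including Snord47, spans 161034601 to 161038539 of chromosome 1 (3939 nt, plus strand) and overlaps the body of Zbtb37. Of the 7 enriched members that touch a snoRNA gene in all hosts, 5 lay here and 2 in Snhg5, all of them Puf60 clusters. Those in Snhg5 meet a snoRNA gene only at an edge. In the authors' deposited table of Puf60 with exon 5, the enriched members lay at 161036351 to 161036400 (1.87), 161036951 to 161037250 (1.36) and 161037951 to 161038550 (1.00). That table also holds a cluster centred in a snoRNA gene, and so no member, at 161036551 to 161036900 (1.03), the 1 enriched cluster among the 26 of that kind. In the authors' deposited table of Puf60 without exon 5 the enriched members lay at 161036451 to 161036900 (0.95), 161036951 to 161037450 (0.31) and 161037951 to 161038550 (0.88). The first of the long clusters, over 3 snoRNA genes from 161035251 on, was depleted for both isoforms at -0.89 and -0.84.

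Over most of Gas5, though not at its 3′ end, Rbm38 clusters were shorter and separated the snoRNA genes from the RNA between them. Of its clusters free of snoRNA genes 5 were enriched in the authors' deposited table: 1.26 at 161036201, 1.97 at 161036551, 2.02 at 161036801, 2.01 at 161037101 and 1.24 at 161037201 (start positions). The snoRNA-centred clusters among them, which are not members, had log2 folds of -3.06, -1.48, -2.10, -2.26 and -0.57. At the 3′ end, 1 cluster of 550 nt spanned Snord47 and its neighbour. The authors' deposited table gave Rbm38 -0.85 there, where the Puf60 isoforms had 1.00 and 0.88 over nearly the same extent. A stretch from 161037351 to 161037400 without a snoRNA gene was depleted for Rbm38 as well, at -1.96, and lies 200 nt from the nearest one.

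**Figure D2:**
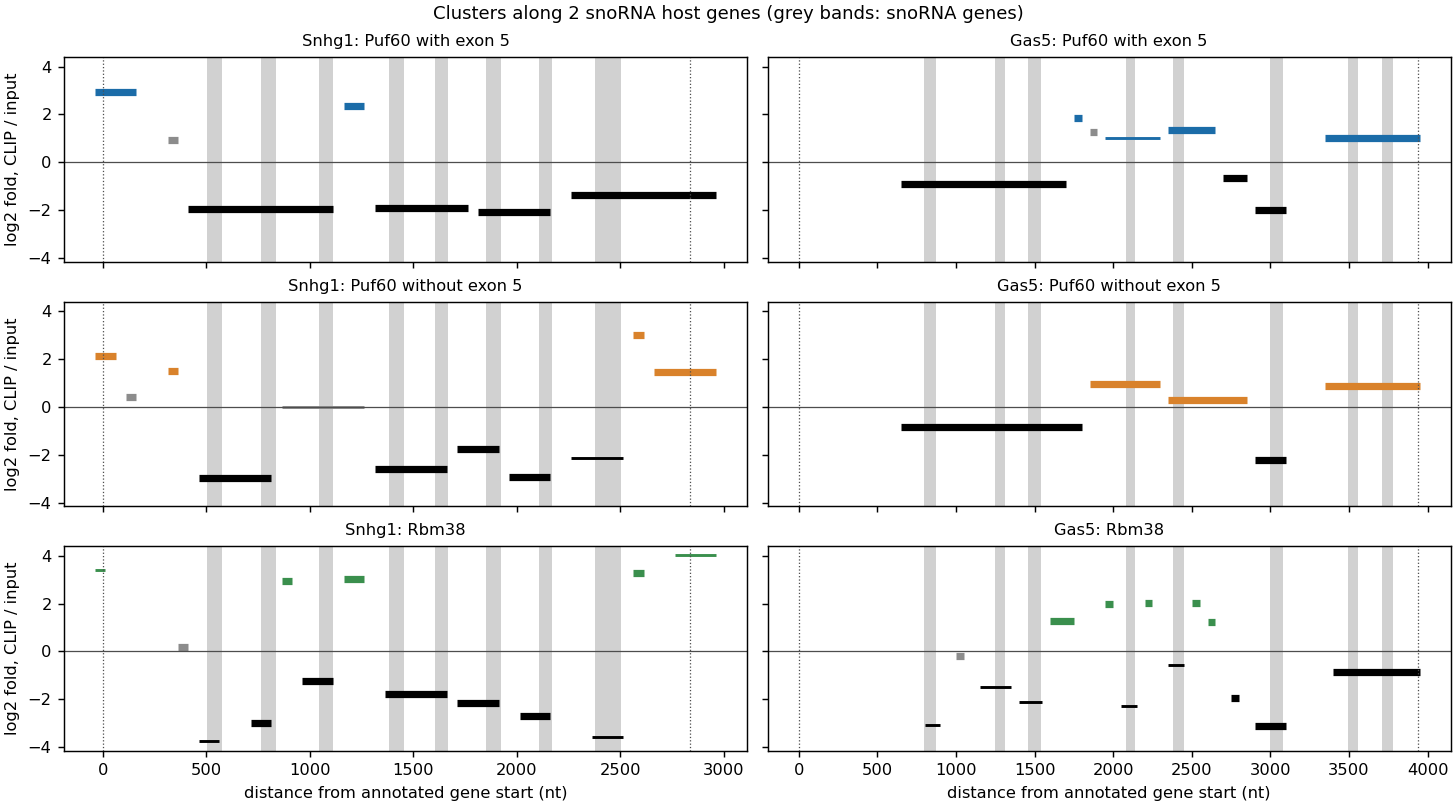
Clusters along Snhg1 and Gas5 by protein, with distance from the annotated start in nt on the horizontal axis and log2 fold of CLIP over input on the vertical axis; coloured lines are enriched, black depleted and grey neither, thick lines are members and thin lines are not, grey bands are snoRNA genes and dotted lines the gene's start and end. The last Puf60 stretch of Snhg1 is 1 long cluster at -1.37 with exon 5 and 3 clusters at -2.14, 3.0 and 1.47 without it.

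1110038B12Rik, which carries Snord52 and a second snoRNA gene, spans 34950235 to 34952471 of chromosome 17 (2237 nt, minus strand). It had 3, 4 and 6 enriched members for Puf60 with exon 5, Puf60 without exon 5 and Rbm38. Besides the start, the authors' deposited tables listed an enriched cluster at 34951636 to 34951685 for all 3 proteins, at 1.21, 0.83 and 1.14. The stretch from 34951836 to 34951985 held enriched clusters of 1.23, 3.03 and 2.56, with different extents. Rbm38 alone had an enriched cluster near the 3′ end, 2.42 at 34950286 to 34950335, where Puf60 with exon 5 had 0.65 with an adjusted p of 1.

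A depleted stretch of 1110038B12Rik lies outside any annotated snoRNA gene. At 34952186 to 34952335 the authors' deposited tables gave log2 folds of -2.92, -3.01 and -2.24, with the same 150-nt extent in each. The clusters that touch Snord52 in the same gene were lower in each of the authors' deposited tables, at -2.98, -3.51 and -3.79. The nearest annotated snoRNA gene, the second one of this host, is 110 nt away. Its clusters were higher than the stretch in each of the authors' deposited tables, at -1.42, -0.42 and -0.95. That at -1.42 is centred in the snoRNA gene and so no member, and that at -0.42 was not called depleted. Of the 12 depleted clusters free of snoRNA genes in the 9 hosts, 6 lay in this gene. Besides those of this stretch they were at -1.15 for Puf60 with exon 5, and at -0.55 and -0.91 for Puf60 without exon 5. The 6 in further hosts had log2 folds between -0.66 and -1.96.

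Snhg12 holds the box H/ACA genes Snora16a, Snora44 and Snora61 and the box C/D gene Snord99 on the plus strand of chromosome 4, from 132308678 to 132311024 (2347 nt). Apart from its start, the authors' deposited table of Puf60 with exon 5 listed enriched clusters at 132310851 to 132310900 (1.32) and 132310451 to 132310500 (0.80), and that of Puf60 without exon 5 listed 1 at 132308801 to 132308850 (1.03). The members that touch Snora44 had -2.53, -2.30 and -5.34 for Puf60 with exon 5, Puf60 without exon 5 and Rbm38 in the authors' deposited tables. Those that touch Snora61 had -2.47, -2.39 and -4.20. Rbm38 thus had its lowest member folds here, and it had no enriched member in this gene.

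**Figure D3:**
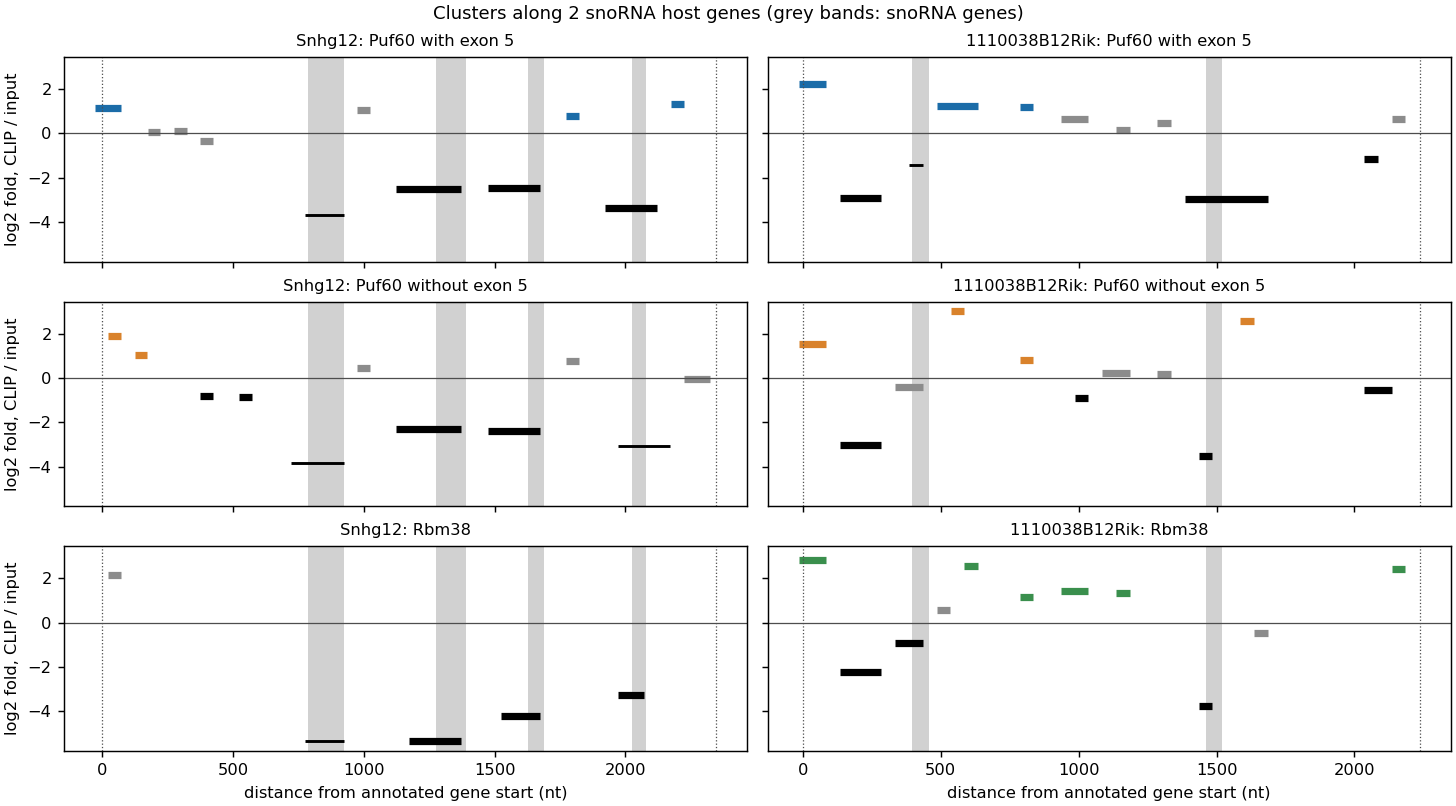
Clusters along Snhg12 and 1110038B12Rik by protein, with distance from the annotated start in nt and log2 fold of CLIP over input; colours, line widths, bands and dotted lines mark calls, membership, snoRNA genes and gene ends (coloured enriched, black depleted, grey neither). The start of each gene has a cluster above 1 for every protein, and the depleted stretch of 1110038B12Rik between 136 and 285 nt from the start touches no band.

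The other 5 hosts had fewer members. Snhg3 lies on the minus strand of chromosome 4, 132351933 to 132353686, and hosts Snora73b and Snora73a, which belong to a family known for a part in ribosomal RNA processing. Its stretch from 132353136 on was, in the authors' deposited tables, at 1.57 for Puf60 with exon 5, 0.76 for Puf60 without exon 5 and 0.63 for Rbm38, the last with an adjusted p of 1. The member that touches Snora73b was at -2.39 and -2.08 in the authors' deposited tables of Puf60 with and without exon 5.

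Snhg5 (chromosome 9, 88521052 to 88522897, minus strand, 2 snoRNA genes) had 4 enriched members for Puf60 with exon 5 and 3 for Puf60 without it. With exon 5 the authors' deposited table gave 3.57 at 88522336, 2.97 at 88522486, 2.52 at 88521436 and 0.80 at 88522586 (start positions). Without exon 5 the authors' deposited table gave 2.84 at 88522386, 2.25 at 88521436 and 1.40 at 88522536. The cluster at 88521436 to 88521535, above input in both, meets a snoRNA gene only at its edge, from 88521529 on. Rbm38 had no member in Snhg5, and the authors' deposited table lists 1 snoRNA-centred cluster at -3.40.

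Snhg6 (chromosome 1, 9942025 to 9944118) hosts Snord87 and overlaps Mcmdc2, and its minus strand was taken from its clusters. Its cluster at 9942136 to 9942185 was enriched in all 3 of the authors' deposited tables, at 3.24, 3.08 and 0.90. A second one at 9942636 to 9942685 was enriched for both Puf60 isoforms, at 0.91 with exon 5 and 1.91 without. One more, at 9942386 to 9942435 (2.41), was listed for Puf60 without exon 5 alone. The clusters centred in Snord87 were at -1.80, -2.28 and -1.57.

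Snhg8 (chromosome 3, 123507552 to 123508336, minus strand) is the shortest of the hosts at 785 nt and contains Snora24. The authors' deposited tables list 1 member for Puf60 with exon 5, 2.71 at 123507636 to 123507685, and 1 for Rbm38, 3.48 at 123507586 to 123507685. None was listed for Puf60 without exon 5, which had the Snora24 cluster at -3.06 beside -3.31 and -5.03 in the other tables.

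Snhg11 (chromosome 2, 158375713 to 158386474, plus strand) is the longest host at 10762 nt and had the highest member fold of all. For Puf60 without exon 5 the authors' deposited table gave it 4.57 at 158383251 to 158383400 and 4.01 at 158383451 to 158383500, and that of Puf60 with exon 5 gave 2.85 at 158383351 to 158383400. At the same place Rbm38 had 0.69 and 0.19 in the authors' deposited table, both with an adjusted p of 1. None of its members touches a snoRNA gene. Clusters on the opposite strand were left out: -1.06 for Puf60 with exon 5, -1.0 and -1.22 for Puf60 without exon 5, and 0.86 for Rbm38.

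Of the 9 hosts, 9, 8 and 8 had a member in the tables of Puf60 with exon 5, Puf60 without exon 5 and Rbm38, and 9, 8 and 5 had an enriched one. Genes with an enriched cluster were not counted over all genes, so these counts have no background, and a difference between the proteins was not tested. The hosts with a Rbm38 member and no enriched one were Snhg3, Snhg11 and Snhg12, where the highest deposited log2 folds were 0.63, 0.69 and 2.14. Ordered by the highest enriched log2 fold in the authors' deposited tables, Puf60 with exon 5 ran from Snhg5 (3.57) and Snhg6 (3.24) down to Snhg3 (1.57) and Snhg12 (1.32). Puf60 without exon 5 ran from Snhg11 (4.57) and Snhg6 (3.08) down to Gas5 (0.95) and Snhg3 (0.76). Rbm38 ran from Snhg8 (3.48) and Snhg1 (3.28) down to Gas5 (2.02) and Snhg6 (0.90). Without a replicate spread, no neighbours in these orders can be said to differ.

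**Figure D4:**
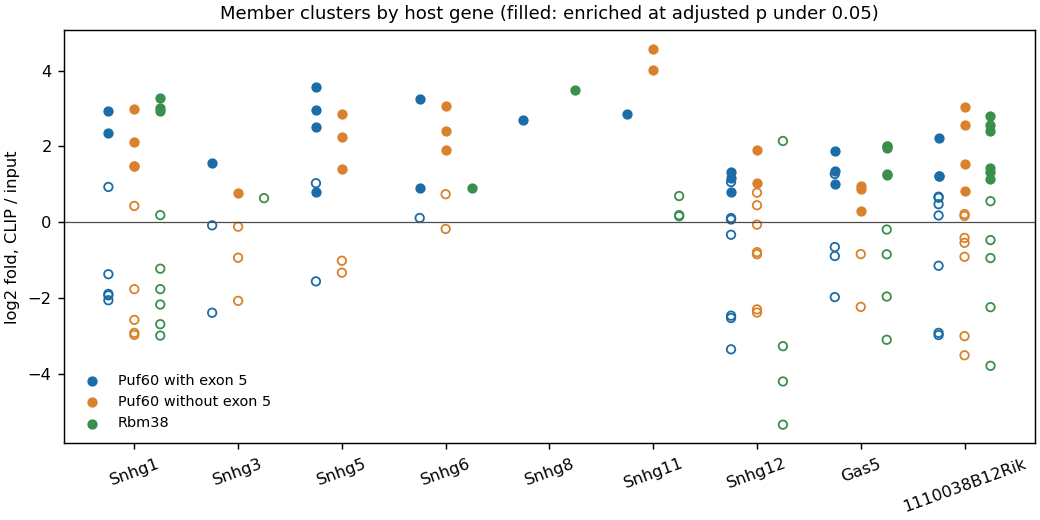
Log2 fold of CLIP over input of every member cluster by host gene and protein; filled points are enriched and open points are not. Snhg11 spans 4.01 to 4.57 for Puf60 without exon 5 and 0.16 to 0.69 for Rbm38.

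Clusters of the Puf60 tables were set side by side where they overlapped each other more than any further cluster, which gave 36 pairs in the hosts and left 12 and 14 members without a pair. Of the 36 pairs, 14 were enriched in both of the authors' deposited tables, 1 with exon 5 alone and 3 without exon 5 alone, while 11 were depleted in both. Shared calls were not counted over all pairs of the tables, so these counts have no background beside them. The median difference (with exon 5 minus without) was 0.10, and over all 20187 pairs of the tables it was 0.10 too. The fold was higher with exon 5 by more than 1 on the log2 scale in 3 pairs, beside 9.63% of all pairs, and lower by more than 1 in 4 pairs, beside 5.69%. None was more than 2 higher, beside 0.674% of all pairs, and 2 were more than 2 lower, beside 0.253%. Both counts of lower pairs include the last stretch of Snhg1. That gene was named for its isoform difference when the hosts were picked, so these counts in part describe that choice.

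All 7 of the pairs that were more than 1 apart had unlike extents in the tables. The 18 pairs of identical start and end differed by -1.0 to 0.85, with a median of 0.14, while the 18 others ran from -5.55 to 1.59. The lowest value came from 1110038B12Rik, where the authors' deposited tables list 34950786 to 34951085 with exon 5, a stretch that includes Snord52, at -2.98, and 34950836 to 34950885 without exon 5, which does not, at 2.57. The next was the last stretch of Snhg1 (-2.84). The 2 that followed were in 1110038B12Rik at 34951836 (-1.80) and in Snhg11 (-1.72), where the authors' deposited tables call the clusters of both isoforms enriched. The highest, 1.59, was in 1110038B12Rik at 34951436, where the authors' deposited tables give 0.67 and -0.91.

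**Figure D5:**
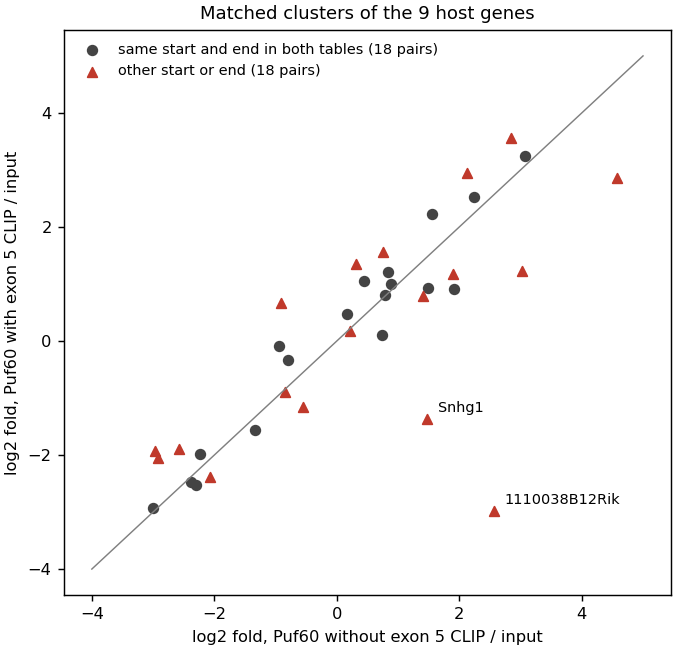
Log2 fold over input with exon 5 against that without exon 5 for 36 matched clusters in the hosts; circles are pairs of identical extent and triangles pairs whose extents differ. The 18 circles stay within -1.0 to 0.85 of equality, and the 2 points farthest from it are at differences of -5.55 and -2.84.

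Related genes were counted from lists of host genes and of the machinery that snoRNAs work with. The other 15 noncoding snoRNA hosts had 19 of 43 (44.2%), 15 of 38 (39.5%) and 21 of 43 (48.8%) clusters enriched for Puf60 with exon 5, Puf60 without exon 5 and Rbm38. These shares lay near the 39.3%, 36.2% and 51.2% of all tested clusters. Those with the smallest p-values in the authors' deposited tables were Snhg20 (4.54) and Snhg4 (3.94) with exon 5, Snhg14 (4.91) and Snhg4 (3.51) without it, and Zfas1 (4.08) and Snhg14 (3.58) for Rbm38. The 33 protein-coding snoRNA hosts had 188 of 371 (50.7%), 169 of 355 (47.6%) and 120 of 328 (36.6%) enriched, beside the same 39.3%, 36.2% and 51.2% of all. By the same measure Nop56 and Ncl, which encode nucleolar proteins, came first for Puf60 with exon 5 (3.26 and 2.61 by the authors' deposited table, log2 scale), Nop56 and Eif4g2 for Puf60 without exon 5 (3.32 and 2.96), and the translation factor genes Eif4g2 and Eif4a2 for Rbm38 (4.85 and 4.23). Their clusters that touch a snoRNA gene were depleted in 13 of 15, 13 of 15 and 16 of 17 cases.

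Among the 9 genes of the box C/D snoRNP, 18 of 33 (54.5%), 18 of 33 (54.5%) and 12 of 32 (37.5%) clusters were enriched, beside 39.3%, 36.2% and 51.2% of all tested clusters. The Puf60 shares rest largely on Nop56, which is also among the protein-coding hosts. It had 13 of 15 clusters enriched with exon 5 and 10 of 11 without. Fbl, which encodes the methyltransferase of that particle, had the smallest p-value there for Rbm38, at 6.11 by the authors' deposited table, ahead of the core protein gene Snu13 at 4.21. By p-value Nop56 was again first for Puf60 (3.26 and 3.32), and Nop58, a core protein, was given 2.98 (exon 5 present) and 3.89 (exon 5 absent) by the authors' deposited tables. Among the 6 genes of the box H/ACA snoRNP, 3 of 11 (27.3%), 1 of 9 (11.1%) and 8 of 12 (66.7%) were enriched. The authors' deposited tables gave Dkc1, the pseudouridine synthase gene, 3.44 for Puf60 with exon 5, a value shared exactly by the assembly factor gene Naf1. Nhp2, a core protein gene, had 0.99 for Puf60 without exon 5 and 3.52 for Rbm38, and Nop10 had 3.21 for Rbm38 in the authors' deposited tables. Among 10 genes of nonsense-mediated decay, 33 of 66 (50%), 31 of 74 (41.9%) and 31 of 64 (48.4%) were enriched, beside 39.3%, 36.2% and 51.2% of all, with Smg6, an endonuclease gene, given 6.27 (exon 5 present) and 5.97 (exon 5 absent) by the authors' deposited tables of Puf60. Smg1, a kinase gene, had 5.49 and 4.99 in the same tables, and Smg8 had 4.24 in the authors' deposited table of Rbm38.

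By the median over the hosts listed in a table, the highest log2 fold of a host was 2.71, 2.92 and 2.08 for Puf60 with exon 5, Puf60 without exon 5 and Rbm38. Of 39 other hosts with a cluster in all 3 of the authors' deposited tables, Snhg17 came nearest to these values by Euclidean distance (2.51, 2.57 and 2.37, distance 0.49). Rpl4 followed (2.78, 2.49 and 1.76, distance 0.55), then Rps12 (2.69, 2.46 and 2.80, distance 0.86). The likeness rests on 3 values a gene.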

How the data were processed

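Per the labels' protocols, iCLIP libraries of Flag-tagged proteins and size-matched inputs were sequenced. TopHat, edgeR and the builds NCBIM37 and mm10 are listed in the submitters' processing notes, with neither versions nor roles; the calling of clusters is not given in the sources used here. Each deposited table gives, per the file headers, a log2 fold change, its p-value and its adjusted p-value for every cluster of 1 protein. The log2 fold was read as CLIP over input. The deposited p-value behaves as one-sided. The planned tests on values per library were not run, since the tables hold comparisons, with 0 further columns of values.

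Strand was inferred from cluster starts on a 50-nt grid (offset 0 plus, 35 minus). Of 9385, 9608 and 17074 enriched clusters in 1 gene of known strand, 92.9%, 93.0% and 94.0% lay on it. Gene bodies and promoters came from RefSeq GRCm38.p6, which as used here gives no exons, so clusters are not placed in exons or introns. Members and lists were chosen with earlier results of these data known. All 9 hosts are named, with up to 4 enriched clusters per gene and protein (3 of highest fold where there are more) and 2 genes per list and protein; other clusters given were chosen after their values were seen. Some genes that this rule or the marker lists name are not reported here. Short clusters often hold values identical to those of another cluster: 20 of 48, 26 of 50 and 17 of 39 members have a log2 fold and a p-value that recur in their table. Of the members, 6, 2 and 4 have a p-value under 0.05 beside an adjusted p-value of 1 in the deposited tables. Counts were made with Python 3.11.15, pandas 2.3.3 and numpy 2.4.6, and tested on simulated data.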

Additional observations from a re-analysis of the deposited data

How the results depend on the processing

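Counts of enriched host clusters stayed within 1.5 times under the alternatives tried: 16 to 26 for Puf60 with exon 5 (20 as reported), 17 to 24 for Puf60 without exon 5 (22) and 15 to 20 for Rbm38 (16). The median isoform difference ranged from 0.09 to 0.21 (0.10). Matching mattered more. Pairs more than 1 apart went from 7 of 36 to 3 of 32 when the overlap had to be 50% of both clusters. They went to 0 of 18 with identical start and end, and to 9 of 41 with a length-weighted mean of overlapping clusters. The difference at the last stretch of Snhg1 went from -2.84 to -1.47 with a length-weighted mean, and had no pair under both stricter overlaps. Hosts with a median above 0 went from 7 to 4 with exon 5 and from 6 to 3 without it when clusters were weighted by length. In all, 29 settings were labelled as keeping the result and 5 as moving it. The median isoform difference of 0.21, beside 0.10 as reported, is among those labelled as kept. No paired analysis was possible because the tables hold no values per library, and leaving out each replicate was not run for the same reason. Depth is unknown, so what it limits cannot be given.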
